A study of Mus musculus with 4 samples.

Results

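The 8 genes described here encode mouse C-type lectin receptors of myeloid cells: Clec4a1, Clec4a2, Clec4a3, Clec4b1, Clec4d, Clec4e, Clec4n and Clec7a. They were chosen by name from 22180 genes whose probe sets carry exactly 1 gene symbol, and the choice was made with their differences between the double knockout and wild type already known. Each of the 8 had 1 such probe set, and all 8 matched RefSeq by gene identifier with the same symbol. The data come from 4 Affymetrix Mouse Gene 2.0 ST arrays, 1 for each genotype, hybridised with RNA from sorted bone marrow cells of mice aged 2 months.

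The genotypes were the knockout of both Fancd2 and Foxo3a (DKO), the single knockouts (Fancd2KO and Foxo3aKO) and wild type (WT). Fancd2 acts in the Fanconi anaemia repair of crosslinked DNA, and Foxo3a is the forkhead transcription factor made from the gene Foxo3. The cells were sorted as Lin-ckit+Sca-1+CD34- and are called SLAM cells in the labels, a gate meant for blood stem cells. The sources used here do not give the knockout alleles, the strain or sex of the mice, or the number of mice or cells behind an array. The design asks how each loss alone, and both together, go with gene expression in these cells. No genotype had a second array, so every difference below lies between single arrays and has no replicate check, and no test between genotypes was possible.

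C-type lectin receptors are surface proteins that bind sugars and lipids of microbes and of dying cells. The activating ones signal through an adaptor with tyrosine motifs, usually the Fc receptor gamma chain, or through a motif of their own, to the kinase Syk and the adaptor Card9. The inhibitory ones carry an ITIM, a tyrosine motif that recruits phosphatases such as Ptpn6. In marrow they are known as genes of monocytes, macrophages, dendritic cells and neutrophils rather than of stem cells.

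The sort gate was set against its markers first, because the receptors belong to mature myeloid cells. Kit, the receptor tyrosine kinase of the gate, stood at 10.43 log2 on the DKO array, 10.41 on Fancd2KO, 10.57 on Foxo3aKO and 10.67 on WT. The median of 27 measured stem cell markers was 7.66 on DKO, 7.83 on Fancd2KO, 7.51 on Foxo3aKO and 7.44 on WT. Neutrophil markers were also present: all 23 reached the floor, the median of all gene values at 5.51 log2, on every array, among them the granule and calprotectin genes. Transcripts of mature myeloid cells were therefore measured on all 4 arrays of a lineage-negative gate. In RNA from pooled cells, fewer cells of a type and less RNA per cell cannot be told apart.

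Clec4a1, Clec4a3 and Clec4b1 stood far higher on the DKO array than on the other arrays. The remaining members had DKO signals close to or below WT, and 7 of the 8 were lower in Fancd2KO and all 8 higher in Foxo3aKO than in WT. This split of the members into a DKO-high group of 3 and the other 5 was made after their values were seen.

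**Figure D1:**
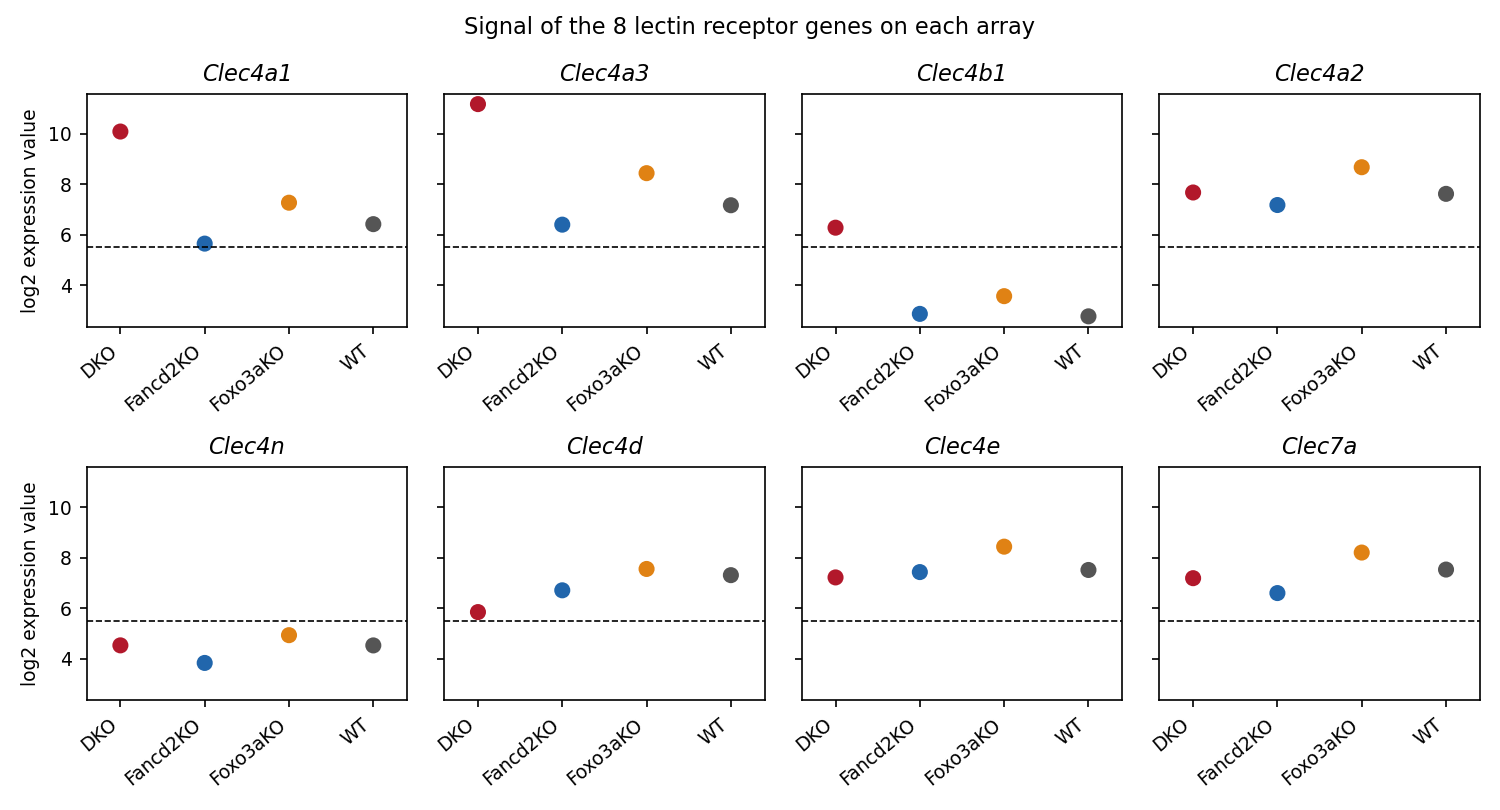
Expression value of each receptor gene (log2, vertical axis, same scale in each panel) on the DKO, Fancd2KO, Foxo3aKO and WT arrays (horizontal axis), 1 point per array, with the floor of 5.51 log2 dashed. Clec4a1, Clec4a3 and Clec4b1 are highest on DKO, the other 5 are highest on Foxo3aKO, and Clec4n stays under the floor.

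Clec4a1 and Clec4a3 are relatives of the inhibitory receptor DCIR and lie next to each other in the genome. Clec4a1 (probe set 17462729) had 10.09 log2 on DKO, 5.65 on Fancd2KO, 7.27 on Foxo3aKO and 6.42 on WT. Clec4a3 (probe set 17462738) had 11.17 log2 on DKO, 6.40 on Fancd2KO, 8.44 on Foxo3aKO and 7.17 on WT. Both genes had the same order of arrays, with DKO highest, then Foxo3aKO, then WT, then Fancd2KO. The DKO signal of Clec4a1 was 12.7-fold that of WT, a log2 difference of 3.67, the 4th highest among 12041 genes that reached the floor on at least 1 array. For Clec4a3 the DKO signal was 16.1-fold that of WT, a log2 difference of 4.01, and ranked 3rd.

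Clec4b1 encodes an activating receptor that pairs with the Fc receptor gamma chain and binds mycobacterial glycolipids. Clec4b1 (probe set 17462756) had 6.28 log2 on DKO, 2.86 on Fancd2KO, 3.57 on Foxo3aKO and 2.77 on WT. It passed the floor only on the DKO array, and its 3 other signals were dim. Its DKO minus WT difference was 3.51 (11.4-fold, rank 7), and it shrank to 0.77 when signals under the floor were raised to it, so the size of this difference depends on how dim signals are read.

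Clec4a2, the neighbour that encodes DCIR itself, bears an ITIM and restrains dendritic cells and neutrophils. Clec4a2 (probe set 17462764) had 7.67 log2 on DKO, 7.18 on Fancd2KO, 8.67 on Foxo3aKO and 7.62 on WT. Its DKO minus WT difference was 0.05, and its highest signal lay on Foxo3aKO. Its Foxo3aKO minus WT difference of 1.06 was just past the 2-fold threshold, which is a log2 difference of 1.

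Clec4d encodes MCL and Clec4e encodes Mincle, partner receptors for the mycobacterial glycolipid cord factor. Clec4d (probe set 17462796) had 5.85 log2 on DKO, 6.71 on Fancd2KO, 7.56 on Foxo3aKO and 7.31 on WT. It was the 1 member with a DKO signal at least 2-fold under WT, at a log2 difference of -1.46, which is 2.76-fold lower and the 62nd lowest of the 12041 genes. Clec4e (probe set 17470627) had 7.22 log2 on DKO, 7.43 on Fancd2KO, 8.44 on Foxo3aKO and 7.52 on WT. Its signals on DKO, Fancd2KO and WT lay close together, and the Foxo3aKO array stood above them, at 0.92 over WT.

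Clec4n encodes Dectin-2, which binds fungal mannans, and Clec7a encodes Dectin-1, which binds fungal beta-glucans and carries its own signalling motif. Clec4n (probe set 17462788) had 4.53 log2 on DKO, 3.83 on Fancd2KO, 4.93 on Foxo3aKO and 4.53 on WT. All 4 signals were under the floor, so its differences are those of dim signals and it is not among the 12041 genes. Clec7a (probe set 17471541) had 7.19 log2 on DKO, 6.60 on Fancd2KO, 8.21 on Foxo3aKO and 7.53 on WT. Its Fancd2KO minus WT difference of -0.93 was the lowest of the members in that comparison and the 211th lowest among all genes that reached the floor.

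The only error that single arrays offer is technical, the disagreement of 2 probe sets of a gene about the same difference. Over 544 genes with 2 probe sets its SD was 0.48 log2 for DKO minus WT, 0.46 for Fancd2KO minus WT and 0.45 for Foxo3aKO minus WT, and 95% of these genes disagreed by less than 0.94, 0.91 and 0.91. No member has a second probe set, so none could be checked this way itself. The members were chosen on their DKO minus WT differences, so the DKO gaps of Clec4a1, Clec4a3 and Clec4b1 to the next array, Foxo3aKO, are given as a description, at 2.82, 2.74 and 2.71. That of Clec4b1 was 0.77 with dim signals raised to the floor. Between arrays next to each other in a member's order, the gap from Foxo3aKO to WT was larger than the disagreement that covers 95% of genes for Clec4a3 (1.27) and Clec4e (0.92), and that from Foxo3aKO to DKO for Clec4a2 (1.001). The 0.92 of Clec4e barely passed its limit of 0.91 and was 0.86, under that limit, with each array centred on its median. The remaining gaps between such neighbours, among them all those of Clec4d, Clec4n and Clec7a, were within the disagreement. Arrays further apart in the order of Clec4d and Clec7a differed by more. The disagreement is technical and leaves out the spread between samples. The Clec4a genes and the Clec4b genes are families of related copies. Probes can be shared between close copies, so the single values of Clec4a1, Clec4a2, Clec4a3 and Clec4b1 are uncertain.

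The DKO minus WT comparison chose the members and is given as a description. Of the 8 members, 3 were at least 2-fold higher and 1 was at least 2-fold lower, where 1.37% of all tested genes were higher and 1.72% were lower by that much. The median difference of the 8 was 0.03, against -0.03 over all genes, so the median hides the 3 large differences.

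In Fancd2KO minus WT, 0 of the 8 members passed 2-fold in either direction, where 1.68% of all genes were higher and 1.35% lower. Below that threshold the differences ran from -0.93 for Clec7a to 0.10 for Clec4b1, with Clec4a1 and Clec4a3 both at -0.77 and Clec4n at -0.69. Signals were lower than in WT for 7 of the 8, and over all genes 51.9% were lower by any amount. The median of the members was -0.65, against -0.01 over all genes.

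In Foxo3aKO minus WT, 2 of the 8 members were at least 2-fold higher and 0 lower, where 1.81% of all genes were higher and 1.3% lower. These were Clec4a3 at 1.27 and Clec4a2 at 1.06, with Clec4e at 0.92 just under the threshold. The smallest of the 8 differences was that of Clec4d at 0.25, so all 8 members were higher than in WT, while 44.6% of all genes were higher by any amount. Their median was 0.82, against -0.04 over all genes. Both single knockouts were set against the same WT array, so a high or low WT signal enters both differences.

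**Figure D2:**
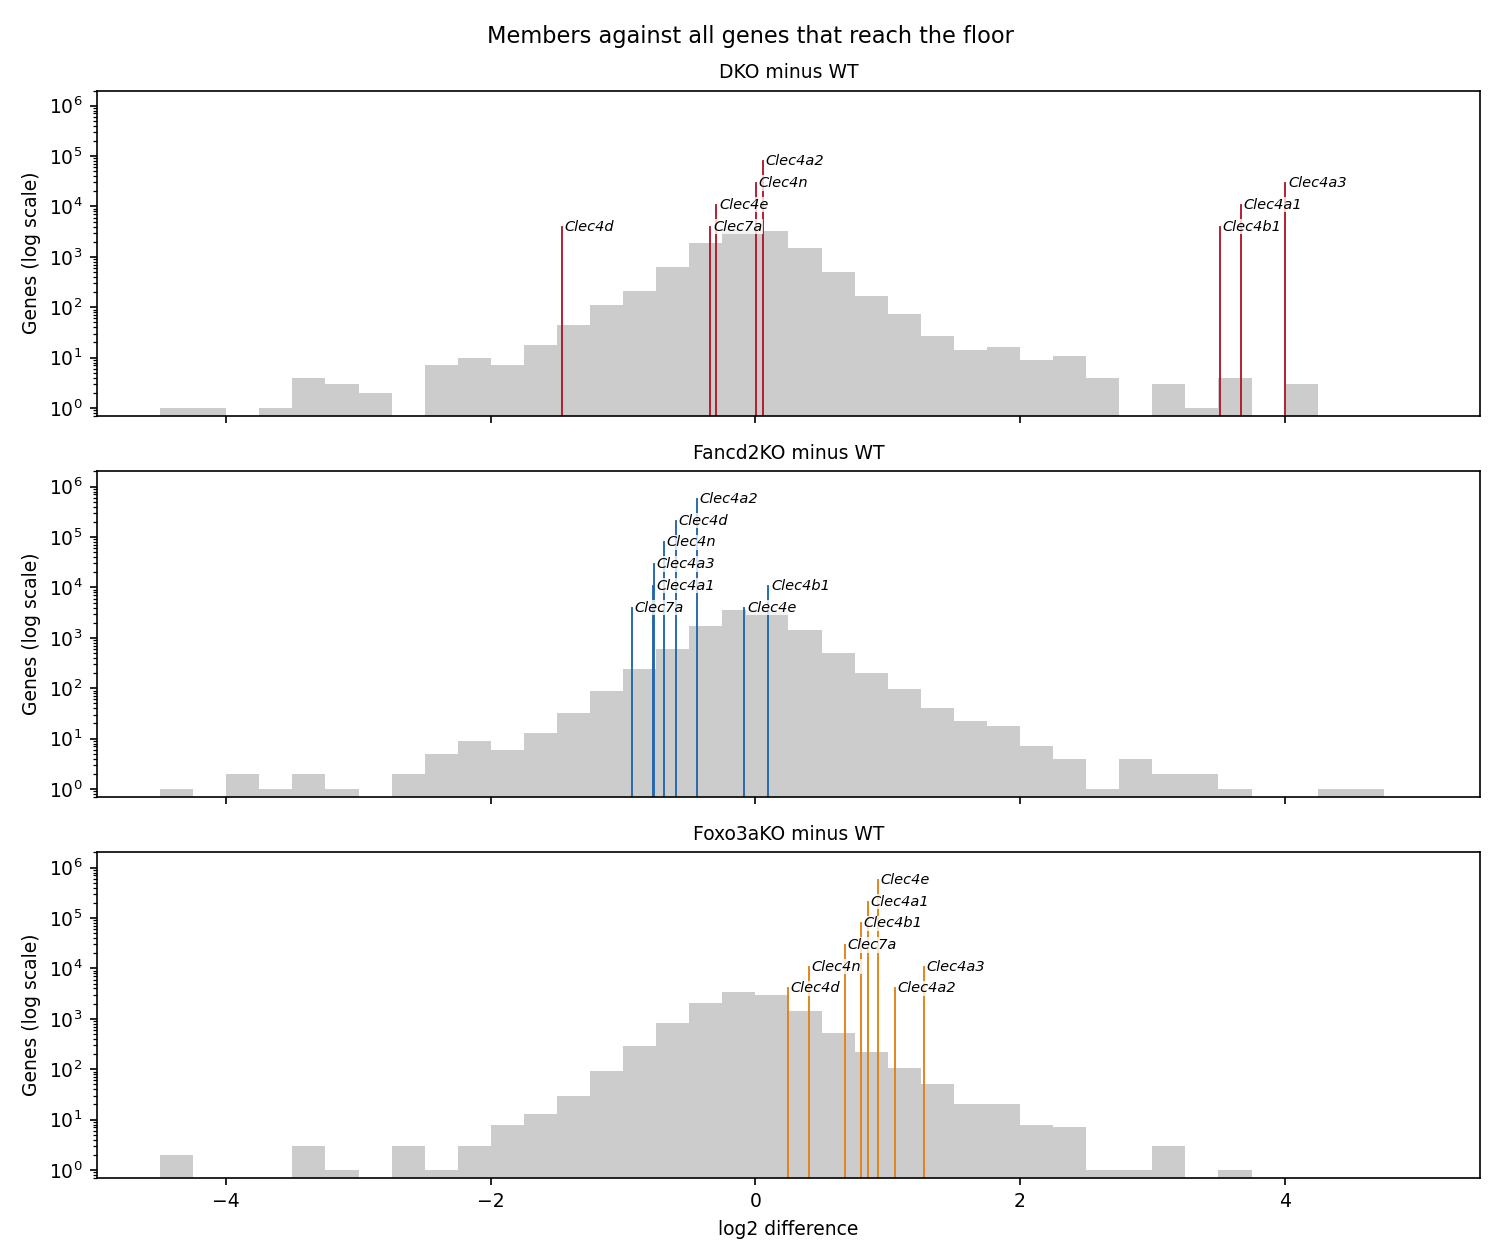
Log2 differences of DKO, Fancd2KO and Foxo3aKO from WT (horizontal axis) for all 12041 genes that reached the floor, as grey bars of gene counts on a log scale, with each member as a labelled line whose height only separates the labels. Clec4a1, Clec4a3 and Clec4b1 lie at 3.51 to 4.01 in DKO minus WT, and the members' lines sit mostly left of 0 in Fancd2KO and right of 0 in Foxo3aKO.

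The double knockout array was also compared with the array of each single knockout. In DKO minus Fancd2KO, 3 of the 8 members were at least 2-fold higher and 0 lower, where 1.5% of all genes were higher and 1.51% lower. Clec4a3 differed by 4.78 (27.4-fold) and Clec4a1 by 4.44, the highest and the 2nd highest of all genes, and Clec4b1 differed by 3.41. Clec4b1 was at only 0.77 once signals under the floor were raised to it, here and in the other comparisons that name DKO first, which leaves 2 of 8 members at least 2-fold higher in each of them. The same DKO array that chose the members enters this comparison.

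In DKO minus Foxo3aKO, the members went in both directions. Clec4a1, Clec4a3 and Clec4b1 were 3 of the 8 at least 2-fold higher, where 1.18% of all genes were, with differences of 2.82, 2.74 and 2.71. Clec4d at -1.71, Clec4e at -1.22, Clec7a at -1.01 and Clec4a2 at -1.001 made 4 of the 8 at least 2-fold lower, where 2.18% of all genes were. The last pair barely passed the threshold.

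If the differences of the single knockouts simply added on the log2 scale, DKO would equal Fancd2KO plus Foxo3aKO minus WT. DKO was above that expectation by 3.59 for Clec4a1, 3.50 for Clec4a3 and 2.62 for Clec4b1, and below it by a difference of -1.14 for Clec4e and -1.11 for Clec4d. These were 3 of 8 members higher and 2 of 8 lower by at least 2-fold, where 3.99% of all genes were higher and 4.43% lower. Clec7a differed from the expectation by -0.08, so its DKO signal was near the sum of both single differences. This measure adds the error of 4 arrays, and the disagreement of probe sets about it was under 1.35 in 95% of genes, which is more than the values of Clec4d and Clec4e. It also holds the DKO array on which the members were chosen, so the values of Clec4a1, Clec4a3 and Clec4b1 are a description.

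**Figure D3:**
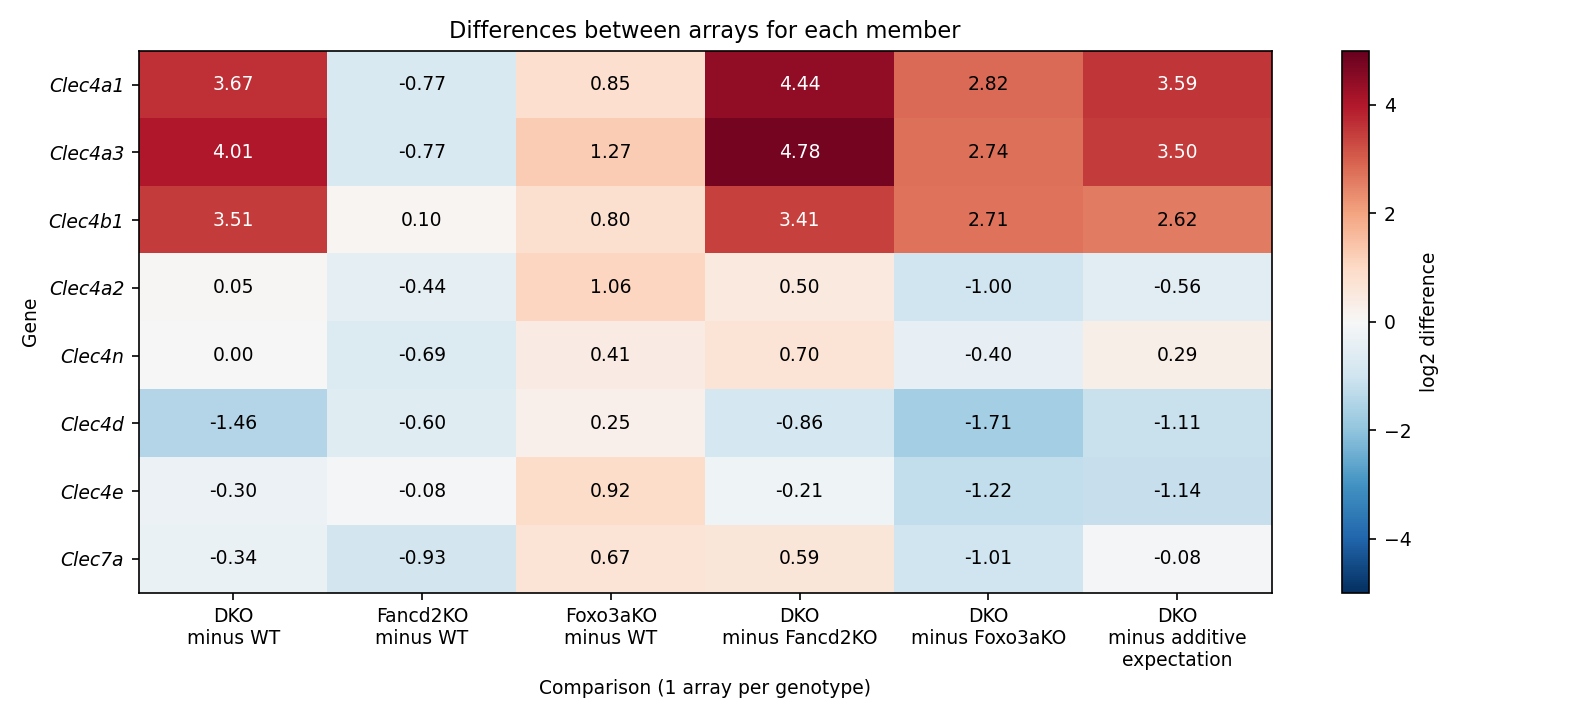
Log2 difference of each member (rows) in 6 comparisons (columns, 1 array per genotype), with red for higher and blue for lower in the genotype named first. Clec4a1, Clec4a3 and Clec4b1 are at 2.62 or more wherever DKO is named first, and Clec4d is at -0.86 or lower there.

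All but Clec7a lie in a complex of 9 measured lectin genes on mouse chromosome 6. In RefSeq GRCm38.p6 the order is Clec4a1, Clec4a3, Clec4a4, Clec4b1, Clec4a2, Clec4b2, Clec4n, Clec4d and Clec4e, 7 of them members. Clec7a lies apart on the same chromosome, with 113 measured genes between Clec4e and it. The DKO-high members were thus at the Clec4a1 end of the complex, and the member with the lower DKO signal was at the other end, with Clec4a2 standing between higher genes without sharing their DKO signal. Only this order is used, since the sources used here do not name the build behind the probe sets.

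The complex holds 2 measured genes outside the chosen 8, Clec4a4 and Clec4b2. Clec4b2, a close relative of Clec4b1 that lies between Clec4a2 and Clec4n, had 7.10 log2 on DKO, 6.08 on Fancd2KO, 6.70 on Foxo3aKO and 4.91 on WT. It was lowest on WT and above WT on all 3 knockout arrays, by 2.19, 1.17 and 1.79, the same order of arrays as Clec4b1. DKO and Foxo3aKO differed by only 0.40 for Clec4b2, and Fancd2KO and WT by only 0.10 for Clec4b1. Both gaps were within the disagreement of probe sets. Clec4a4, a further relative of DCIR, was under the floor everywhere, at 3.30 log2 on DKO, 2.65 on Fancd2KO, 2.47 on Foxo3aKO and 2.44 on WT.

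Beyond the complex, the nearest measured genes did not share the DKO signal. The 6 genes before Clec4a1, among them Slc2a3, C3ar1 and Necap1, differed from WT by -0.76 to 0.29 in DKO. Only 3 of these 6 reached the floor, and C3ar1 did not. The 6 after Clec4e are vomeronasal receptor genes under the floor on every array, and differed by -0.41 to 0.12. Of these 12 flanking genes, 0 passed 2-fold in DKO minus WT, where 1.37% of all tested genes were higher and 1.72% lower. Around Clec7a likewise 0 of 12 neighbours passed 2-fold in DKO. With shares this small, a count of 0 of 12 does not set these neighbours apart from other genes. In the single knockouts 1 neighbour of Clec7a was 2-fold higher than in WT, the activation marker Cd69 at 1.37 in Fancd2KO and 1.18 in Foxo3aKO, and 1 was lower, the platelet receptor Clec1b at -1.15 and -1.18. Clec1b was under the floor on every array, so its differences are those of dim signals. Fancd2 is also on chromosome 6, and its distance from these genes was not used here.

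**Figure D4:**
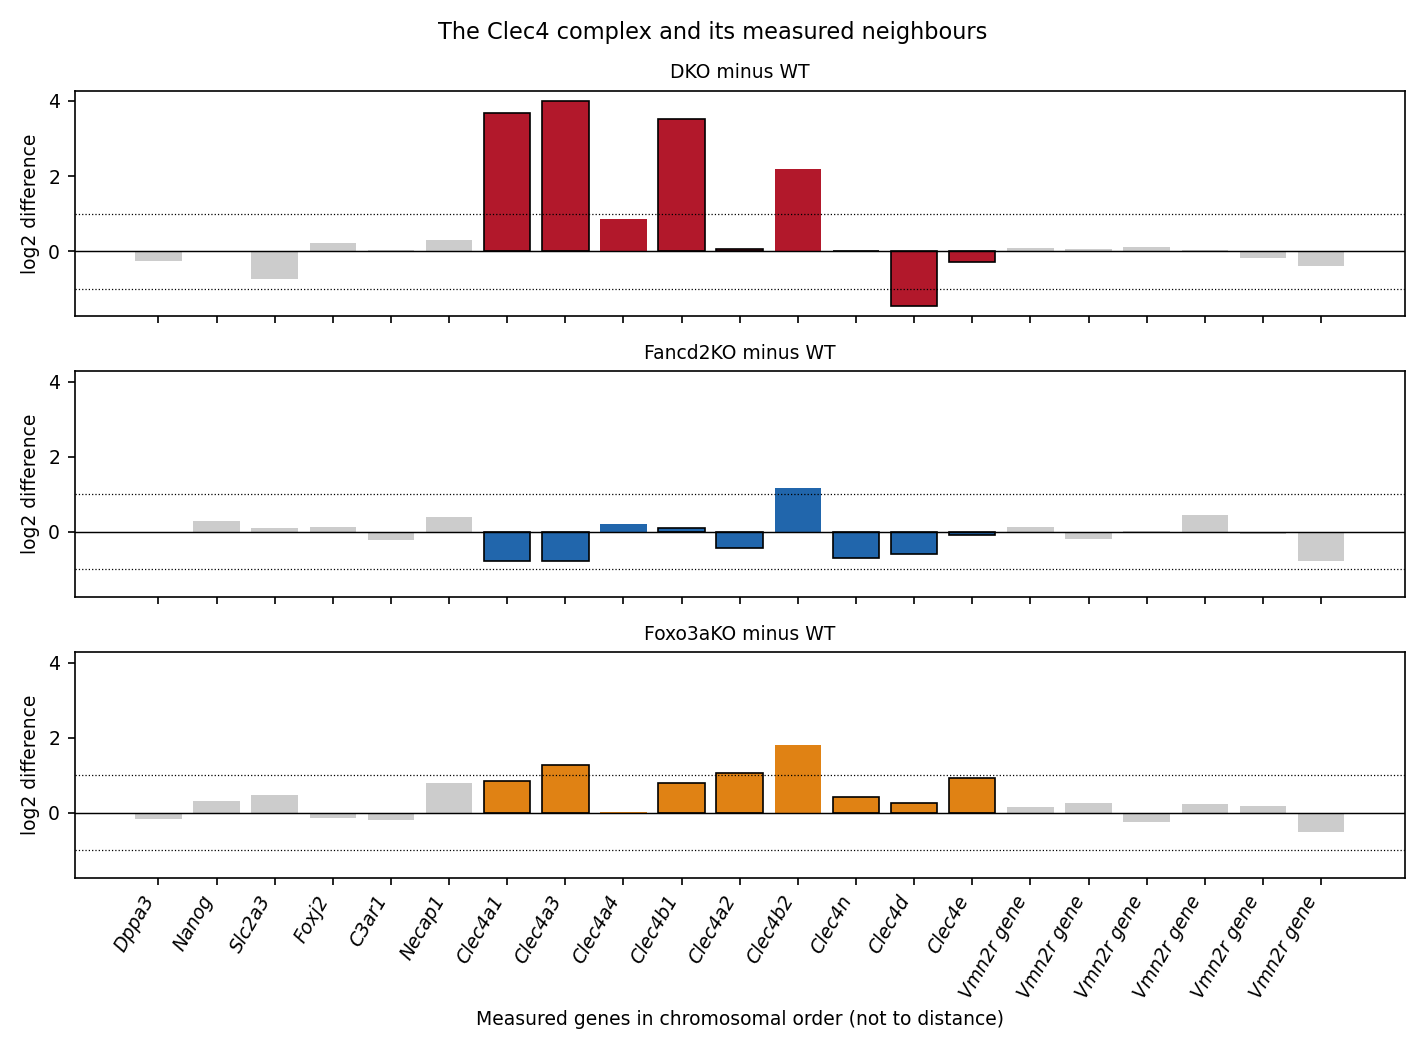
Log2 difference from WT (vertical axis) in DKO, Fancd2KO and Foxo3aKO for measured genes in chromosomal order (horizontal axis, not to distance), with members outlined in black, the other lectin genes of the complex without outline, flanking genes in grey and the 2-fold threshold dotted. Tall DKO bars run from Clec4a1 to Clec4b2 except at Clec4a4 and Clec4a2, and the 12 genes flanking the complex stay within the threshold in all 3 panels.

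Promoter letters were read to see whether the DKO-high members share sequence near their starts. RefSeq GRCm38.p6 windows of 250 bases before to 50 after the start were given for 7 members, with 9 windows in all. Shown are the 250 bases before the start for the 3 DKO-high members and for Clec4d and Clec4e, which were not high on DKO, each 5′ to 3′ on the strand of its gene. Capitals mark GAGGAA or its reverse complement TTCCTC, the core letters bound by PU.1, the transcription factor (gene Spi1) that myeloid genes depend on. Clec4a3 has a second annotated start, which is not shown.
Clec4a1 promoter, chr6:122921598-122921847, plus strand: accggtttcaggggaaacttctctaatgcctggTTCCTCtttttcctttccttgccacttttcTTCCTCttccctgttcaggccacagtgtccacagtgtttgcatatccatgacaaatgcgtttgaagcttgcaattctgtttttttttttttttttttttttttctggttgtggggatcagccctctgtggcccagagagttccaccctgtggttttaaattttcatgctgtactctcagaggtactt
Clec4a3 promoter, chr6:122952265-122952514, plus strand: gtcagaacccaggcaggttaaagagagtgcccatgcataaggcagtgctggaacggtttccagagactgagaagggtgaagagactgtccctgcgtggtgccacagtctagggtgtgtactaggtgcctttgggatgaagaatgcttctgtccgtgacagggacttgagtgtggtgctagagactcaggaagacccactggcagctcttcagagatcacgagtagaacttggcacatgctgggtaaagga
Clec4b1 promoter, chr6:123049712-123049961, plus strand: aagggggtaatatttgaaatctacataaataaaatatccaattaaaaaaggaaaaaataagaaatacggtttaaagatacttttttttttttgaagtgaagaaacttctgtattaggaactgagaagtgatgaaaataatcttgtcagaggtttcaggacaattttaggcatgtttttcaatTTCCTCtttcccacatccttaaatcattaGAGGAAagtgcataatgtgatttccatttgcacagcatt
Clec4d promoter, chr6:123261857-123262106, plus strand: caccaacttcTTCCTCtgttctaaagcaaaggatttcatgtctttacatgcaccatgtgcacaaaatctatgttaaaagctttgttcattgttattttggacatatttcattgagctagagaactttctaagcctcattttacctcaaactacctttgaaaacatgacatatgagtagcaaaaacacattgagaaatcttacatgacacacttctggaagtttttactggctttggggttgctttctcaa
Clec4e promoter, chr6:123289872-123290121, minus strand: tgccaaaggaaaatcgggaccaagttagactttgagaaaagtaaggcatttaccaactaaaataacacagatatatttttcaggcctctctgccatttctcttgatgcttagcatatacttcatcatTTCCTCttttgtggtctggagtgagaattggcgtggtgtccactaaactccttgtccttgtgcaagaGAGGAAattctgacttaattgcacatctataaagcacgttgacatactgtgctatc

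These letters were in the windows of 6 of the 7 members, on either strand, and in the windows of 31.25% of all 27025 genes with a promoter. Both Clec4b1 and Clec4e held them on both strands within the 250 bases before the start, and Clec4a1 held them at 217 and 187 bases before it. Clec4d held them at 240 bases before the start and at 8 and 40 bases after it. The second window of Clec4a3 held them at 50 bases before the start, and its first window did not hold them. The match was present in DKO-high members and in others, and Clec4a2 was the member with a window and no match. The search also covered 4 further motifs. TGTGGT, the RUNX type, was in 4 of 7 members and 18.92% of genes, TATAAA, the TATA box, was in 3 of 7 and 15.67%, TTGCAA, the C/EBP type, was in 1 and 7.09%, and TGANTCA, the AP-1 type, was in 1 and 8.97%, each on both strands. In Clec4e the letters TATAAA stood 29 bases before the start.

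The promoter windows were also aligned with each other, and only 2 pairs aligned over a longer stretch with high identity. Those of Clec4b1 and Clec4b2 aligned over 186 columns at 73.7% identity. Clec4a1 aligned with the second window of Clec4a3 over 51 columns at 88.2% identity, with a run of 17 identical bases. The window of Clec4a2 aligned with that of Clec4a1 over only 16 columns and with those of Clec4a3 over 21 and 22. A match of letters describes the sequence and says nothing about what was bound in these cells.

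The signalling genes downstream of the receptors were counted at the same threshold. Of 28 measured genes from Fcer1g to the NF-kappa-B and NFAT factors, 0 were 2-fold higher in DKO than in WT and 1 was lower, the B cell linker Blnk at -1.21. Of all tested genes 1.37% were higher and 1.72% lower, so these counts do not set the list apart. In DKO minus Fancd2KO 2 were higher, Fcer1g at 1.44 and Fgr at 1.13, where 1.5% of all genes were. There 1 was lower, Blnk at -1.40, where 1.51% of all genes were. Fcer1g, the Fc receptor gamma chain that activating members other than Clec7a pair with, had 11.20 log2 on DKO, 9.76 on Fancd2KO, 10.96 on Foxo3aKO and 10.57 on WT, the same order of arrays as Clec4a1 and Clec4a3. Its gaps from DKO to Foxo3aKO (0.24) and from Foxo3aKO to WT (0.39) were within the disagreement of probe sets. Syk stood at 7.95 on DKO, 7.80 on Fancd2KO, 8.22 on Foxo3aKO and 8.09 on WT. Neither single knockout had a gene of this list past 2-fold against WT, which the small shares of all genes given above do not set apart. The medians of the list were -0.09 in DKO, -0.11 in Fancd2KO and 0.13 in Foxo3aKO minus WT.

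Among 12 measured phosphatases and inhibitors that act on ITIM receptors, 0 passed 2-fold against WT in any knockout. With the small shares of all genes given above, a count of 0 of 12 does not set this list apart from other genes. Ptpn6, which binds the ITIM of DCIR, had 9.79 log2 on DKO, 9.47 on Fancd2KO, 9.67 on Foxo3aKO and 9.77 on WT. The largest DKO minus WT differences in this list were those of the adaptor Dok1 at 0.77 and the ubiquitin ligase Cblb at 0.64.

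Genes that such receptors are known to switch on differed in both directions. Of 24 response genes, 2 were at least 2-fold higher in DKO than in WT, the cytokines Il23a at 1.23 and Il10 at 1.10, and 1 was lower, Il12a at -1.21. Over all genes tested, 1.37% were higher and 1.72% lower by that much. Il23a had 5.63 log2 on DKO and 4.39 on WT, and Il10 had 5.54 and 4.44. Both were just over the floor on DKO and under it on WT, so these are differences of dim signals. Fancd2KO had 4 of 24 higher and 0 lower, among them the chemokine Ccl2 at 1.81. Foxo3aKO had 6 of 24 higher and 0 lower, among them the inflammasome gene Nlrp3 at 2.26. In DKO minus WT the largest of these, 1.23, was well under the 3.51 to 4.01 of the DKO-high members.

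Other receptor families were compared at the same threshold, and the shares of all genes past it are those given above. In a list of 13 further lectin genes measured in the same gene complexes, Clec4b2 was the 1 gene at least 2-fold higher in DKO than in WT, and 0 were lower. In Fancd2KO 2 of the 13 were higher and 3 lower than in WT, and in Foxo3aKO 2 were higher and 2 lower. Besides Clec4b2, Cd69 and Clec1b, these were Clec2d at -1.46 in Fancd2KO and -1.20 in Foxo3aKO, and Clec2i at -1.13 in Fancd2KO. Of 20 other myeloid lectins, such as Clec5a, Mrc1 and the Cd209 genes, 1 was 2-fold higher in DKO, Clec14a at 1.05, which stayed under the floor, and 0 were past 2-fold in the single knockouts. Of 25 pattern recognition receptors and their partners, 2 were higher in DKO than in WT, Tlr8 at 1.33 and the Cd180 partner Ly86 at 1.03, and 1 was lower, the scavenger receptor Msr1 at -1.59. Msr1 also stayed under the floor on every array. In Foxo3aKO 6 of the 25 were higher and 0 lower, with Tlr13 at 1.59 and Ly96 at 1.25. Of 18 monocyte transcription factors, 2 were higher in DKO than in WT and 0 lower, Pparg at 3.33 and Maf at 1.25. In Fancd2KO 3 of the 18 were higher and 0 lower, Nr4a1 at 2.81, Egr1 at 2.14 and Klf4 at 1.58. In Foxo3aKO 4 were higher and 0 lower, Nr4a1 at 1.85, Egr1 at 1.67, Klf4 at 1.49 and Irf8 at 1.25. Nr4a1, Egr1 and Klf4 differed from WT by only 0.80, -0.04 and 0.64 in DKO.

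Markers of several mature cell types also differed between the arrays. The marker lists were chosen with earlier results of these data known, so their counts are descriptions. Of all tested genes, 1.37% were at least 2-fold higher in DKO than in WT and 1.72% lower. Of 20 non-classical monocyte markers, 11 were at least 2-fold higher in DKO than in WT and 0 lower, with a median difference of 1.05. Their summed linear signal was 9810 on DKO, 6475 on Fancd2KO, 7767 on Foxo3aKO and 5952 on WT. In Fancd2KO minus WT, 17 of the 20 were lower, with a median of -0.25. The 3 higher ones included Nr4a1, at 11.05 log2 on Fancd2KO and 8.23 on WT. So high a signal weighs heavily in the linear sum of Fancd2KO. In DKO 3 of the 20 were lower than in WT, each by less than 2-fold, among them Spn at -0.26, and Nr4a1 was higher by 0.80. Fcgr4, an Fc receptor of this list, had 9.97 log2 on DKO, 5.71 on Fancd2KO, 6.78 on Foxo3aKO and 5.90 on WT. That is the array order of Clec4a1 and Clec4a3, with a Fancd2KO minus WT difference of only -0.19. Pparg, a nuclear receptor of the same list, had 7.83 log2 on DKO, 4.50 on Fancd2KO, 4.23 on Foxo3aKO and 4.50 on WT. On the WT array 5 of the 20 were under the floor, and on DKO 0 were. Of 19 dendritic cell markers, 2 were 2-fold higher in DKO than in WT, Itgax at 2.37 and H2-Eb1 at 1.02, and 1 was lower, Flt3 at -2.30. The wider list of 26 monocyte and macrophage markers had 7 higher and 2 lower in DKO than in WT, with medians of 0.24 in DKO, -0.42 in Fancd2KO and 0.49 in Foxo3aKO minus WT. The part of these markers in the DKO signals of Clec4a1, Clec4a3 and Clec4b1 was not tested.

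Classical monocyte and neutrophil markers were, at the median, lower in DKO and in Fancd2KO and higher in Foxo3aKO than in WT. Of 12 classical monocyte markers, 1 was 2-fold higher and 2 lower in DKO than in WT, with medians of -0.35 in DKO, -0.41 in Fancd2KO and 0.46 in Foxo3aKO minus WT. The 23 neutrophil markers had median differences of -0.43 in DKO, -0.35 in Fancd2KO and 0.46 in Foxo3aKO. Their summed linear signal was 40435 on DKO, 40935 on Fancd2KO, 63372 on Foxo3aKO and 48228 on WT. Itgam, the integrin chain of neutrophils and monocytes, had 9.43 log2 on DKO, 8.86 on Fancd2KO, 10.46 on Foxo3aKO and 9.66 on WT. Their part in the Fancd2KO and Foxo3aKO signals of the 8 members was not tested.

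Markers of cells that are not known for these receptors differed as well. Of 18 eosinophil, basophil and mast cell markers, 0 were 2-fold higher and 8 lower in DKO than in WT, 0 higher and 8 lower in Fancd2KO, and 1 higher and 5 lower in Foxo3aKO. Their medians were -0.76 in DKO, -0.96 in Fancd2KO and -0.45 in Foxo3aKO minus WT, and their summed linear signal was 3463 on DKO, 3916 on Fancd2KO, 6782 on Foxo3aKO and 10242 on WT. WT was thus highest for this list, unlike for any of the 8 members. Of 13 B cell markers, 5 were lower in DKO, 1 in Fancd2KO and 0 in Foxo3aKO. In erythroid, megakaryocyte, T and NK cell, and endothelial and stromal lists, at most 3 genes passed 2-fold in a direction in any knockout. In Foxo3aKO 3 of 14 erythroid and 3 of 14 megakaryocyte markers were lower (1.3% of all genes), and 3 of 16 T and NK cell markers higher (1.81%). Single differences were large. Fabp4, of the endothelial and stromal list, was at 4.06 in DKO, 2.31 in Fancd2KO and -1.06 in Foxo3aKO minus WT. Ppbp, of the megakaryocyte list, was at -3.39, -3.11 and -3.29.

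**Figure D5:**
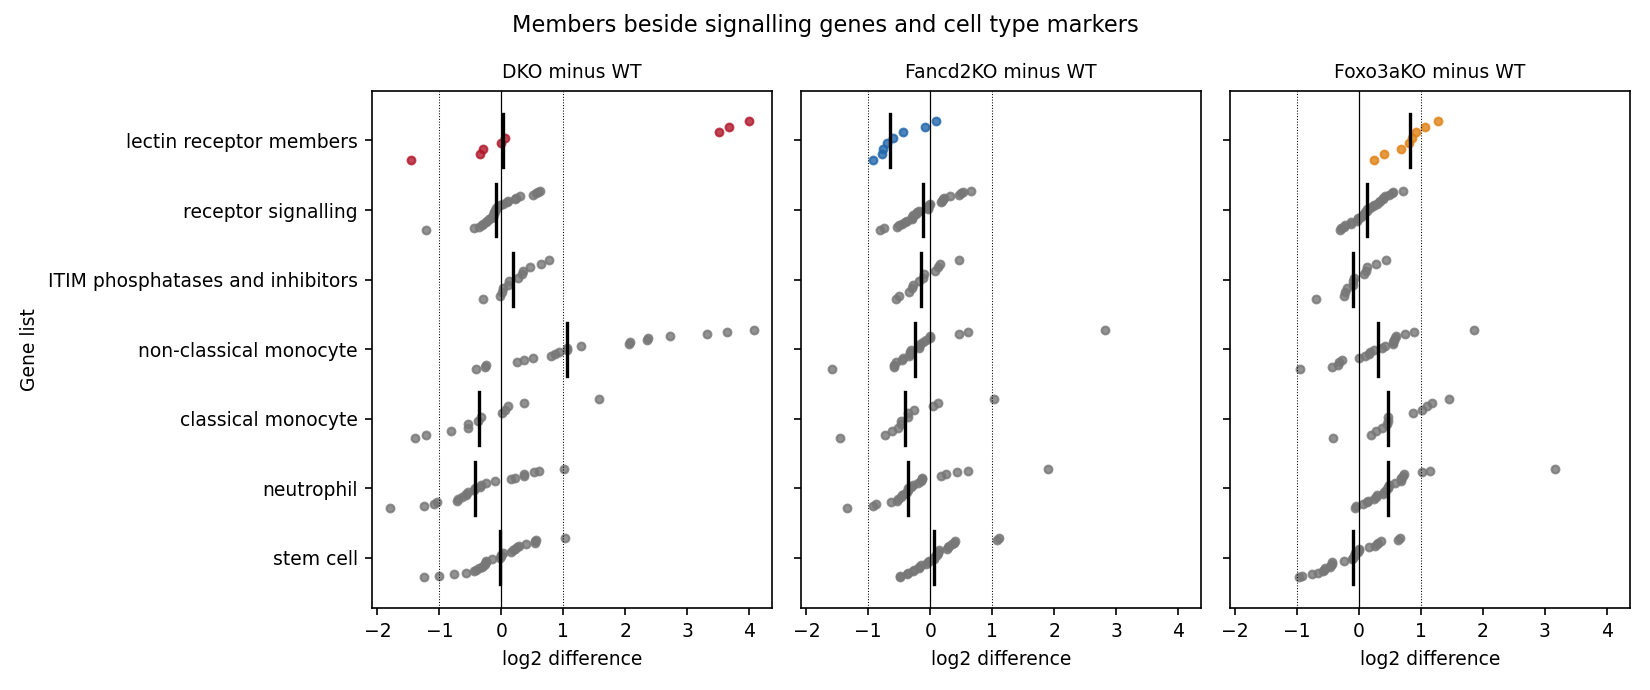
Log2 differences from WT (horizontal axis, same scale in each panel) in DKO, Fancd2KO and Foxo3aKO for the members and 6 gene lists (rows), 1 point per gene, with a vertical bar at each list's median and the 2-fold threshold dotted. Points past 3 in DKO are found among the members and the non-classical monocyte markers, while signalling genes and ITIM phosphatases stay mostly within the threshold.

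The genes most like the members over the 4 arrays were named by distance between patterns. Each gene's values were taken minus their own mean, and the distance to the members' median pattern was the root of the summed squares. Against the median of all 8, the closest 12 were Ap3s1 and Cybb, both at 0.18, then Rap1gap2, Msrb1, Gca, Fcgr3, Lpcat2, Zfp992, Ap1s2, Ano10, Pik3r6 and Prkcb, the last at 0.27. Cybb, the catalytic chain of the phagocyte oxidase, had 10.54 log2 on DKO, 9.90 on Fancd2KO, 11.21 on Foxo3aKO and 10.56 on WT. That median pattern lay near no DKO-high member, whose own distances from it were 3.11 for Clec4a1, 3.31 for Clec4a3 and 2.77 for Clec4b1. The closest 12 were a different set, with 0 shared, when dim signals were raised to the floor.

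Patterns of both member groups were therefore also used, a choice made after the values were seen. Against the 3 DKO-high members the closest were Fcgr4 at 0.44, Bcl2a1a at 0.85, Cd300e at 1.16 and Adgre4 at 1.20, and 0 of its 12 were among the first 12. Against the other 5 the closest were Fpr2 at 0.09, Rflnb and Mmp25 at 0.11 and Itgam at 0.15, and 2 of its 12 were among the first 12. With 4 arrays many patterns lie close by, and likeness here says nothing of shared control.

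The arrays themselves were alike, with medians of 5.31 log2 on DKO, 5.27 on Fancd2KO, 5.34 on Foxo3aKO and 5.28 on WT and correlations between arrays of 0.965 to 0.969. Background probe sets with 20 or more G and C bases had medians of 6.70 on DKO, 6.51 on Fancd2KO, 6.06 on Foxo3aKO and 6.59 on WT, so that background was lowest on the array where all 8 members were above WT. Its part in the members' values was not tested, since the base composition of their probes was not used here. Fancd2 had 5.84 log2 on DKO, 6.08 on Fancd2KO, 6.67 on Foxo3aKO and 6.56 on WT, lower in both genotypes that lack it by less than the disagreement of probe sets. Foxo3 had 6.51 log2 on DKO, 6.72 on Fancd2KO, 6.64 on Foxo3aKO and 6.62 on WT, and so does not check the labels. The sources used here do not say whether its probe set lies in the deleted part, and statements on Foxo3a loss rest on the labels.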

How the data were processed

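Each genotype had 1 array (Affymetrix Mouse Gene 2.0 ST, 4 in all). The deposited values are log2 expression values that the authors made, and the submitters' processing notes name Affymetrix Expression Console. The sources used here do not give the summarisation, the normalisation or the genome build, and the log2 scale was read from the range of the deposited values. Any compression of differences by that summarisation would pass into every value.

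Of 41345 probe sets, 23521 had 1 gene symbol in the platform annotation, 1814 had several and 16010 had none listed, and only the first kind was used. Where a gene had more than 1 probe set, the one with the highest mean stood for it, which gave 22180 genes. The floor was the median of all gene values (5.51 log2), and 12041 genes reached it on at least 1 array. Arrays were subtracted for 6 comparisons, and genes at least 2-fold apart were counted. With 1 array per genotype there is no test, and the number of arrays limits the precision.

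The members, 7 pathway lists, 12 marker lists and the rules were chosen with earlier results of these data known. The rule allowed naming of the 8 members, the 12 genes most like them, up to 4 genes per list with the largest DKO minus WT difference, any list gene past 2-fold, and Fancd2 and Foxo3. Not every list gene that it allowed is named, and those named are examples. Predicted genes and chemosensory receptors were counted and not named. Genes named outside this rule (Kit, Itgam, Syk, Ptpn6, Clec4a4, the named flanking genes and the genes closest to either member group) were chosen for their role or place, or after their values were seen.

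Alternatives were quantile normalisation, median centring and cyclic loess (limma 3.58.1 in R 4.3.3), the mean of all probe sets, raising dim signals to the floor, and thresholds of 1.5-fold and 3-fold. Promoters came from RefSeq GRCm38.p6 and were searched and aligned with Python 3.11.15 and Biopython 1.88. Protein sequences were not used here. The counting step was tested on simulated data, and the likeness step was not.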

Additional observations from a re-analysis of the deposited data

Results flagged for a closer look

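For 4 members the same loss went with opposite directions in the 2 backgrounds, each read from single arrays, and the difference between backgrounds was not tested. Clec4a1 was higher by 2.82 log2 with Fancd2 loss on top of Foxo3a loss (DKO minus Foxo3aKO) and lower, at -0.77, with Fancd2 loss alone (Fancd2KO minus WT), which is 3.59 apart. Clec4a3 did the same, at 2.74 with both losses and -0.77 with Fancd2 loss alone, 3.50 apart. For Foxo3a loss the turn was the other way. Clec4d stood at -0.86 with Foxo3a loss on top of Fancd2 loss (DKO minus Fancd2KO) and at 0.25 with Foxo3a loss alone (Foxo3aKO minus WT), a difference of -1.11. Clec4e stood at -0.21 with both losses and 0.92 with Foxo3a loss alone, a difference of -1.14. The members were chosen on the DKO minus WT difference, and the DKO array enters each of these values, so they are descriptions. Those of Clec4d and Clec4e are within the 1.35 that covers 95% of probe set disagreements about this measure.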

How the results depend on the processing

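No normalisation turned a member's direction past the threshold, and the largest shift of any of the 144 member differences under quantile normalisation, median centring or cyclic loess was 0.07 log2. Counts near the threshold still moved. With arrays centred on their medians, 1 member was 2-fold higher in Foxo3aKO than in WT, and 2 were lower in DKO than in Foxo3aKO, also 2 under quantile normalisation. At 1.5-fold, 5 members were lower in Fancd2KO than in WT (6.29% of all genes tested) and 6 higher in Foxo3aKO than in WT (5.85%), and 5 were higher (5.33%) and 1 lower (6.1%) in DKO than in Fancd2KO. At 3-fold, 0 were lower in DKO than in WT (0.415%), 0 higher in Foxo3aKO than in WT (0.49%), 1 lower in DKO than in Foxo3aKO (0.648%) and 0 below the additive expectation (1.63%). With dim signals raised to the floor, 7 of 48 member differences moved by more than the SD of probe set disagreement, and 2 members, in place of 3, were 2-fold higher in each of the 4 comparisons that name DKO first. With Clec4a4 and Clec4b2 counted in, a choice made after seeing the data, 1 gene was 2-fold higher in Fancd2KO than in WT. The DKO minus WT median of the 8, 0.03, was -0.0014 with centred arrays. The mean of all probe sets changed nothing, since each member has 1. No paired analysis was possible because each genotype has 1 array, and no array could be left out for the same reason. Clec4n and, outside DKO, Clec4b1 are limited by signals under the floor.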
